A study of Homo sapiens with 3 samples.

Results

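The core genes of the RAS-RAF-MEK-ERK cascade were followed in MM1S cells, a human myeloma line, after the addition of FK866. FK866 blocks NAMPT, an enzyme in the synthesis of NAD from nicotinamide. Cells without the compound, labelled 0 h, cells kept in 10 nM FK866 for 6 h and cells kept in it for 24 h gave 1 Affymetrix array each, all from the same line grown in RPMI-1640 with fetal bovine serum. There was no untreated array at 6 h or 24 h, so FK866 and time in culture cannot be told apart. Because each group is a single array, differences are described without a test, and none has been checked in a replicate.

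A RAS GTPase passes a signal from receptors at the membrane to RAF kinases, RAF phosphorylates the MEK kinases, and MEK phosphorylates ERK, which acts on cytoplasmic and nuclear substrates. The flux through these proteins is set largely by GTP loading and phosphorylation, which a transcript level does not show. Mutations that activate the cascade are common in multiple myeloma, and ERK output in plasma cells feeds growth and survival.

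The genes asked for were NRAS, HRAS, ARAF, BRAF, MAP2K1, MAP2K2 and MAPK3, and a probe set counted when GEO's platform annotation gave exactly 1 symbol, one of these 7. This found 8 of 54675 probe sets, for 5 of the 7 genes. HRAS, MAP2K1 and MAPK3 had 1 probe set each, ARAF had 2 and MAP2K2 had 3. For NRAS and BRAF no probe set carried the symbol alone in the annotation used here, and they were not analysed here. Of the 8 probe sets, 7 passed a filter on low values, and all 5 genes kept at least 1. The filter kept probe sets whose mean log2 signal over the 3 arrays reached the median of all, a signal of 19.1, after signals below 16 were set to that floor. A gene has the value of its brightest kept probe set, and 11883 genes had one.

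The arrays carried the plasma cell markers of the line. All 8 of 8 listed plasma cell markers, among them SDC1 and TNFRSF17, had signals of at least 100 on every array, with summed signals of 31730 without FK866, 29474 after 6 h and 30182 after 24 h. The 3 B cell markers with a probe set were below the floor throughout, and sums over the 4 T cell, 4 myeloid and 4 stroma markers lay between 22.9 and 148.8. Relative to untreated cells the median gene stood at -0.10 (6 h) and -0.13 (24 h) on the log2 scale, so the differences below are also given relative to these shifts. The 12 bright probe sets of hybridisation spikes had median differences from untreated cells of -0.16 (6 h) and -0.19 (24 h). For ACTB the 3' probe set exceeded the 5' one, a sign of RNA quality, by log2 values of 2.25 without FK866, 2.55 after 6 h and 2.33 after 24 h, and for GAPDH it was 0.24, 0.20 and 0.32. The part of the ACTB difference in the 6 h values below was not tested.

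MAP2K2 and MAPK3, a MEK and an ERK kinase gene, had the lowest differences of the 5 at 6 h by their brightest probe sets, and their promoters are shown because no other gene of the annotation overlaps these windows. The sequences are the 250 bases before each gene's start in RefSeq, build GRCh38.p14, read 5′ to 3′ on the minus strand. The MAP2K2 window is chr19:4124123-4124372 and the MAPK3 window is chr16:30123221-30123470. Capitals mark GC boxes (the letters GGGCGG on either strand) and the E box (the palindrome CACGTG).
MAP2K2: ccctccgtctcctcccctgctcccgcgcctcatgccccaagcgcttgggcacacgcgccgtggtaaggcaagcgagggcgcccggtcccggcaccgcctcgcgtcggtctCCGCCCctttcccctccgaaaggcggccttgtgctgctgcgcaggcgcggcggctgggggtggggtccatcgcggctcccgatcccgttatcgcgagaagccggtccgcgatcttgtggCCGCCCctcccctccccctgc
MAPK3: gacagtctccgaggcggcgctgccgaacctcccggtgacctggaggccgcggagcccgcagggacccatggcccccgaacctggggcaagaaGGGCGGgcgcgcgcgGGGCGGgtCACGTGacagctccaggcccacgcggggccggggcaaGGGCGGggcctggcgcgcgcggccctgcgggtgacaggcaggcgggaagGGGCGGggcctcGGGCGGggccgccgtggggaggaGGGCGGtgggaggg
The MAP2K2 window held 2 GC boxes and the MAPK3 window 6 GC boxes and 1 E box, none of them overlapping. Of 35116 promoter windows of the same length, 42.6% held a GC box and 6.34% the E box on either strand. An ETS core, spelled CCGGAA, occurs on either strand in 14.5% of these windows and was found in neither sequence. The same holds for a CRE core, spelled TGACGT, which occurs in 7.10%, and for the CCAAT box, which occurs in 32.01%. The HRAS window held 3 GC boxes, 1 ETS core and 1 CCAAT box. The MAP2K1 window held 3 GC boxes, 1 CRE core and 1 CCAAT box, and the ARAF window 1 ETS core, 1 CRE core and 2 CCAAT boxes. A match of letters is not a binding site, and no binding was measured.

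At the top of the cascade, HRAS encodes a RAS GTPase that switches between GDP-bound and GTP-bound states. Its signal was 359.3 without FK866, 260.2 after 6 h and 330.3 after 24 h. The 6 h array was the low one, and the 24 h array lay close to the untreated one. HRAS was 1.38-fold lower at 6 h than in untreated cells, a log2 difference of -0.47, or -0.36 relative to the median gene. The 24 h difference from untreated cells was -0.12, which became 0.01 relative to the median gene. In bulk RNA, fewer cells carrying a transcript and less transcript per cell cannot be told apart.

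The differences have to be read against an error, and the measure of it used here is how far a gene's probe sets lie from each other, called the probe set spread below. Its SD on the log2 scale was pooled over genes grouped by the mean over all their kept probe sets. It was 0.28 at 6 h and 0.29 at 24 h for a mean signal of 256 to 1024, the range of HRAS and MAP2K1. At 128 to 256 it was 0.37 at both times, and at 32 to 64 it was 0.49. MAP2K2 falls at 256 to 1024 by its brightest probe set and at 128 to 256 by the mean over its kept ones. ARAF falls at 128 to 256 by its brightest probe set and at 32 to 64 by the mean over its kept ones. At 64 to 128, the range of MAPK3, it was 0.42 and 0.41. It covers probe error and isoforms and leaves out the variation between cultures. HRAS at 6 h lay beyond this spread and HRAS at 24 h within it. Centring on array medians put HRAS at 6 h at -0.24, within the spread.

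ARAF encodes an X-linked member of the RAF kinase family, which binds GTP-loaded RAS and activates MEK. Its brighter probe set gave signals of 186.5 without FK866, 160.5 after 6 h and 138.1 after 24 h. The untreated array was the highest and the 24 h array the lowest. The log2 difference from untreated cells was -0.22 at 6 h, within the spread, and -0.43 at 24 h, a 1.35-fold lower signal. The 24 h value lay slightly beyond the spread taken as 0.37 and within the spread taken as 0.49. Relative to the median gene the 24 h value was -0.30, within either. Centring each array on its median put the 6 h difference at 0.01. The second ARAF probe set was dim, with 24.3 without FK866, 15.7 after 6 h and 21.0 after 24 h. Its 6 h value lay under the floor, so it was at least 1.52-fold lower than in untreated cells there. Between the treated arrays the ARAF probe sets went opposite ways, with log2 differences for 24 h minus 6 h of -0.22 for the brighter and 0.39 for the dimmer.

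By their brightest probe sets, the MEK genes differed in which array was lowest. MAP2K1, which encodes MEK1, the kinase that phosphorylates ERK, gave signals of 993.2 without FK866, 804.3 after 6 h and 722.3 after 24 h. Like ARAF it was highest in untreated cells and lowest at 24 h. Against untreated cells it was 1.23-fold lower after 6 h (log2 -0.30) and 1.38-fold lower after 24 h (log2 -0.46), and relative to the median gene -0.20 and -0.33. The 6 h value barely exceeded the probe set spread, and relative to the median gene it lay within that spread. The step from 6 h to 24 h, -0.16, lay within its spread of 0.23.

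MAP2K2 encodes MEK2, the close paralog of MEK1. Its brightest probe set gave signals of 426.1 without FK866, 275.5 after 6 h and 415.5 after 24 h. The 6 h array stood apart from the other two, which lay within 1.03-fold of each other. MAP2K2 was 1.55-fold lower at 6 h than in untreated cells (log2 -0.63, or -0.53 relative to the median gene), and 9.96% of all genes had a lower difference. MAP2K2 lay beyond the probe set spread there, taken as 0.28 or as 0.37. At 24 h it was 1.51-fold higher than at 6 h (log2 0.59), and 94.8% of all genes had a lower difference.

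A second MAP2K2 probe set pointed the other way. This dimmer probe set gave signals of 40.3 without FK866, 56.7 after 6 h and 40.9 after 24 h. It was 1.41-fold higher at 6 h than in untreated cells (log2 0.49), against -0.63 for the bright probe set, and the untreated and 24 h signals were nearly equal on both. The mean over both put MAP2K2 at -0.07 at 6 h and 0.06 for 24 h minus 6 h, so its 6 h difference rests on the choice of probe set. The third probe set was below the floor on every array, with 4.0 without FK866, 4.1 after 6 h and 6.6 after 24 h, and gives no difference. Among the 760 genes with several kept probe sets that differed at least 1.5-fold at 6 h, 249 (32.8%) had a probe set of the opposite sign.

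The contrast between the MEK genes does not depend on a scaling factor shared by an array. By their brightest probe sets, the 24 h difference of MAP2K2 from untreated cells lay 0.42 above that of MAP2K1 on the log2 scale. Over the 9 other settings this value was between 0.40 and 0.45. Only quantile normalization (0.40), a constant added to the signal (0.41) and the mean over probe sets (0.45) changed it. The other settings returned 0.42, so the narrow range does not measure stability. The probe set spread at 24 h was 0.29 for MAP2K1, and 0.29 or 0.37 for MAP2K2. No spread was computed for the contrast itself, so its size was not set against an error. For 24 h minus 6 h the contrast was 0.75, with a range of 0.22 to 0.75. For 6 h minus untreated cells it was -0.32, and with the mean over probe sets it turned to 0.24. HRAS and MAPK3 differed from MAP2K1 by 0.34 and 0.38 at 24 h in the same sense.

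At the end of the cascade, MAPK3 encodes ERK1, which phosphorylates downstream kinases and transcription factors. Its single probe set gave signals of 114.9 without FK866, 80.1 after 6 h and 108.8 after 24 h. As with HRAS and the brightest MAP2K2 probe set, the 6 h array was low and the other arrays were close. MAPK3 was 1.43-fold lower at 6 h than in untreated cells (log2 -0.52, or -0.42 relative to the median gene). The first value lay slightly beyond the probe set spread for its level and the second just within it. Centring on array medians gave -0.29 and quantile normalization -0.36, both within the spread. At 24 h MAPK3 differed from untreated cells by -0.08 and from 6 h by 0.44. The ending of this probe set's ID, _x_at, marks probes that may cross-hybridise with other transcripts, and no other probe set of the gene was found.

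**Figure D1:**
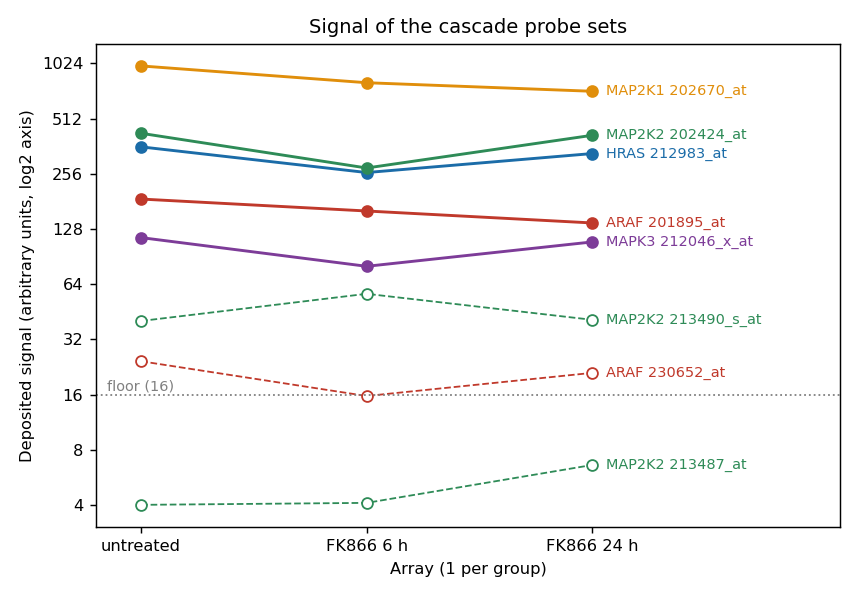
Deposited signal in arbitrary units (log2 axis) of the 8 cascade probe sets on the 3 arrays, 1 array per group. Filled points and solid lines are the probe sets that give the gene its value, open points and dashed lines the others, and the dotted line is the floor of 16. HRAS, the bright MAP2K2 probe set and MAPK3 dip at 6 h, MAP2K1 and the bright ARAF probe set are lowest at 24 h, and the second MAP2K2 probe set peaks at 6 h with 56.7.

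At 6 h, 5 of 5 genes had a signal below that in untreated cells, and 63.2% of all genes did too. The median of the 5 log2 differences was -0.47, with a range of -0.63 to -0.22, against -0.10 over all genes. MAP2K2 alone was at least 1.5-fold lower and none was 1.5-fold higher, where 11.3% of all genes were lower and 5.71% higher by that much. Of 8639 genes with a mean signal of at least 64, as all 5 have, 6.57% were 1.5-fold lower and 3.14% higher. The median of the 5 stayed negative under the 9 other settings, from -0.47 to -0.24. MAP2K2 fell inside 1.5-fold under 5 of them, namely quantile normalization, centring, subtraction of the median gene difference, log2(signal + 32) and the mean over probe sets.

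At 24 h, 0 of 5 genes differed by 1.5-fold from untreated cells in either direction, where 14.1% of all genes were lower and 5.01% higher, and 9.05% and 2.64% of those with a mean signal of at least 64. The median of the 5 was -0.12, beside -0.13 over all genes. ARAF and MAP2K1 lay at -0.43 and -0.46, whereas HRAS, MAP2K2 and MAPK3 lay between -0.12 and -0.04. All 5 were below untreated cells, as were 65.2% of all genes, but the sign of HRAS, MAP2K2 and MAPK3 turned positive with quantile normalization, with centring on array medians and when the median gene difference was subtracted. The comparisons of 6 h and of 24 h with untreated cells share the untreated array.

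Between the treated arrays, by the brightest probe sets, HRAS, MAP2K2 and MAPK3 had higher signals at 24 h than at 6 h, and ARAF and MAP2K1 had lower ones. The log2 differences were 0.34, 0.59 and 0.44 for the higher genes and -0.22 and -0.16 for the lower ones. The probe set spread was 0.23 for HRAS and 0.38 for MAPK3. For MAP2K2 it was 0.23 by its brightest probe set and 0.32 by the mean over its kept ones. ARAF lay within its spread, taken as 0.32 or as 0.45, and MAP2K1 within 0.23. MAP2K2 was the only one past 1.5-fold, where 5.28% of all genes were higher and 7.91% lower, and 2.21% and 4.19% of those with a mean signal of at least 64. Over all genes, 54.6% had a lower signal at 24 h than at 6 h. HRAS was higher at 24 h by 0.31 to 0.38 and MAPK3 by 0.33 to 0.48 under the other settings that gave them a value. With the mean over probe sets MAP2K2 was at 0.06 and ARAF turned to 0.09. The second kept probe set gave -0.47 for MAP2K2 and 0.39 for ARAF, so both directions rest on the choice of probe set.

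**Figure D2:**
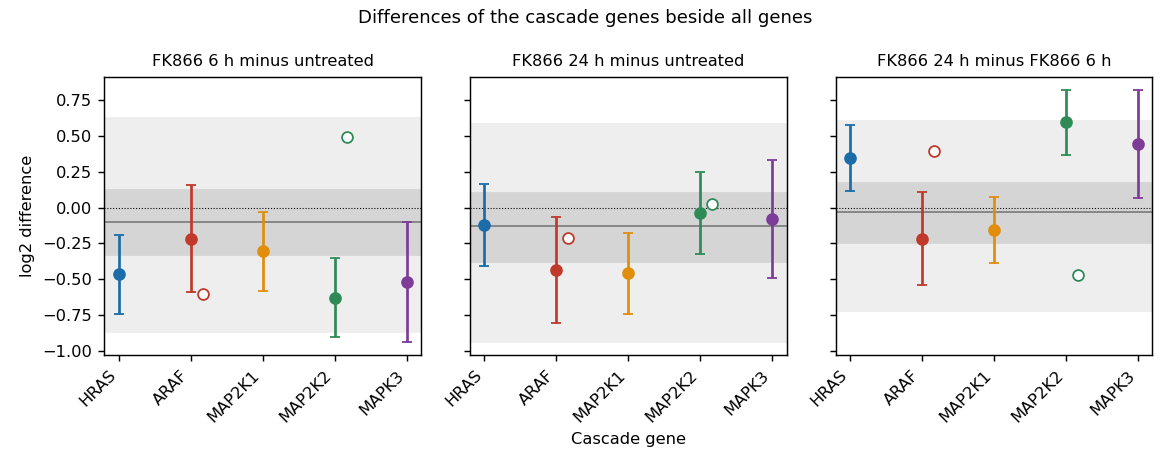
log2 differences of the 5 cascade genes in the 3 comparisons named above the panels. Filled points are gene values with bars of 1 SD between probe sets of one gene at the signal level of its brightest probe set. Open points are other kept probe sets, the dark and light grey bands hold the central 50% and 90% of all 11883 genes, and the grey line is their median. The MAP2K2 points lie at -0.63 and 0.49 at 6 h.

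A search of 5529 other genes, all at a mean log2 signal of 8 or more, found that those closest to MAP2K2 in the pair of differences from untreated cells were ITGA4, an integrin subunit (-0.63 and 0.00), ACAT2, a thiolase of acetyl-CoA metabolism (-0.64 and -0.07), and CARS2, the mitochondrial cysteinyl-tRNA synthetase (-0.60 and -0.01). Their Euclidean distances were 0.034, 0.038 and 0.044 on the log2 scale. Over 3 arrays such likeness is weak, and 12 genes lay within 0.1.

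Around the cascade, genes that load RAS with GTP or end its signal included both higher and lower ones. Of 23 listed genes, 13 were measured, with 5 at least 1.5-fold lower and 1 higher at 6 h, and 5 lower and 1 higher at 24 h. Of all genes, 11.3% were lower and 5.71% higher at 6 h, and 14.1% and 5.01% at 24 h. The list medians were -0.24 and -0.36. RASGRP3, an exchange factor that loads RAS with GTP, had a signal of 747.7 at 6 h and 775.1 at 24 h, against 340.8 in untreated cells, which is 2.19-fold and 2.27-fold higher on its 1 kept probe set. RASA2, a GTPase-activating protein that ends RAS signalling, had 1398.5 at 6 h and 1600.3 at 24 h, against 2883.6 in untreated cells, and its 3 probe sets lay between -1.16 and -1.04 at 6 h and between -0.89 and -0.82 at 24 h.

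GAB2, a docking protein that recruits activators of the pathway, had 129.1 at 6 h and 93.0 at 24 h, against 251.8 in untreated cells, 1.95-fold and 2.71-fold lower. RASGRP3, RASA2 and GAB2 were past 1.5-fold in the same direction under all settings that gave them a value. RASGRP3 and GAB2 rest on 1 kept probe set each, and both had no value without probe sets that may cross-hybridise. RASAL2, another GTPase-activating protein, was 2.01-fold lower at 24 h from a signal of 58.8 in untreated cells, and with a floor of 64 it gave no difference. SOS1, the exchange factor recruited by receptors, differed by 0.16 at 6 h and -0.20 at 24 h, with its 5 probe sets from -0.94 to 0.23 and from -1.19 to -0.20. RASGRP1 differed by 0.51 at 24 h from an untreated signal of 28.0, and was under the floor at 6 h.

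Enzymes of RAS membrane attachment and turnover had medians close to those of all genes. All 12 listed genes were measured, with medians of -0.13 at 6 h and -0.02 at 24 h. FNTB, the farnesyltransferase beta subunit, was at least 2.01-fold lower at 6 h, where it lay under the floor, and 1.55-fold lower at 24 h, from an untreated signal of 32.1; with a floor of 64 neither difference remained. ZDHHC9, which palmitoylates RAS, had 115.3 at 6 h against 166.4 in untreated cells, a log2 difference of -0.53, but its second probe set gave 0.35. LZTR1, an adaptor for RAS ubiquitination, differed by -0.36 and -0.32. RCE1, the protease that trims farnesylated RAS, differed by 0.34 and RABGEF1 by 0.29 at 6 h, with -0.18 on a second RABGEF1 probe set. RCE1 gave no difference with a floor of 64. PDE6D, the chaperone that carries prenylated RAS, differed by 0.39 and the farnesyltransferase alpha subunit FNTA by 0.11 at 24 h, with its 3 probe sets from -0.48 to 0.67. At 24 h 2 genes of this list were 1.5-fold lower, where 14.1% of all genes were. These were FNTB and RCE1, and the 24 h signal of RCE1 lay at the floor.

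Of 7 other RAS, RAF and ERK pathway kinase genes listed, 3 were measured. The RAS relative RRAS was 1.82-fold lower at 6 h, with 30.7 against 55.9 in untreated cells, and differed by -0.03 at 24 h. RRAS2 differed by -0.28 and 0.01, with its 3 probe sets from -0.28 to 0.06 at 6 h. MAP3K8, a kinase that activates MEK without RAF, was 1.53-fold lower after 6 h and 1.93-fold lower after 24 h, with 22.8 and 18.0 against 34.8 in untreated cells. Neither RRAS at 6 h nor MAP3K8 at either time was 1.5-fold lower with a floor of 64 or with log2(signal + 32).

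Scaffolds and regulators of RAF and MEK were mostly close to untreated cells, with 21 of 23 measured and medians of -0.07 and -0.23. At each time 1 gene was at least 1.5-fold lower and 1 higher, where 11.3% and 5.71% of all genes were at 6 h and 14.1% and 5.01% at 24 h. KSR1, a scaffold that holds RAF and MEK together, had 39.6 at 6 h and 37.8 at 24 h, against 91.8 in untreated cells, 2.32-fold and 2.43-fold lower, but within 1.5-fold with a floor of 64. CNKSR1, another scaffold, had 100.3 and 91.7 against 59.8 in untreated cells, 1.68-fold and 1.53-fold higher, and fell inside 1.5-fold with log2(signal + 32) at both times and with a floor of 64 at 24 h. PEA15, which keeps ERK in the cytoplasm, differed by -0.31 at 6 h, the phosphatase subunit PPP1CB by -0.50 and the phosphatase scaffold PPP2R1A by 0.52 at 24 h, and the chaperone HSP90AA1 by 0.04 at 6 h.

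Among direct substrates of ERK, 12 of 13 were measured, with medians of -0.19 and -0.29, and 1 at 6 h and 3 at 24 h were at least 1.5-fold lower, where 11.3% and 14.1% of all genes were. ELK1, a ternary complex factor at serum response elements, had 137.9 at 24 h against 243.5 in untreated cells, and ELK3, its relative, had 1546.5 against 2654.9, 1.77-fold and 1.72-fold lower. Centring on array medians put both inside 1.5-fold. RPS6KA2, a ribosomal S6 kinase, was 1.57-fold lower at 6 h, and inside 1.5-fold with quantile normalization, centring, subtraction of the median gene difference or log2(signal + 32). The repressor ERF differed by -0.52 at 6 h. The kinase RPS6KA5 differed by 0.28 and RPS6KA3 by 0.08 at 6 h, and at 24 h ETS1 differed by 0.52 and RPS6KA5 by 0.12. The second RPS6KA5 probe set gave -0.18 at 6 h and -0.45 at 24 h, and the second RPS6KA3 probe set -0.07 at 6 h, so these directions rest on the choice of probe set.

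Of 10 listed transcripts that rise with ERK activity, 5 were measured. Of these, 4 had a lower signal at 6 h and 3 at 24 h than in untreated cells, as did 63.2% and 65.2% of all genes. The list had medians of -0.88 at 6 h and -0.46 at 24 h. At 6 h 3 were at least 1.5-fold lower and 0 higher, where 11.3% and 5.71% of all genes were, and at 24 h 2 were lower and 1 higher, where 14.1% and 5.01% were. ETV5, an ETS factor, was 2.00-fold lower after 6 h and 3.16-fold lower after 24 h, with 29.8 and 18.8 against 59.5 in untreated cells, and gave no difference with a floor of 64. CCND1, cyclin D1, had 50.8 at 6 h and 100.7 at 24 h, against 93.2 in untreated cells, log2 differences of -0.88 and 0.11; the 6 h difference was -0.54 with a floor of 64. The ERK phosphatase gene DUSP4 differed by -1.96 and -2.05, whereas DUSP6, whose product also acts on ERK, differed by 0.57, which is inside 1.5-fold, and 0.65. The 3 DUSP6 probe sets ran from 0.20 to 1.16 at 6 h and from 0.31 to 1.21 at 24 h. The 3 DUSP4 probe sets ran from -2.76 to -1.66 at 6 h and from -2.68 to -1.56 at 24 h. PHLDA1 differed by -0.38 and -0.46, with its 6 probe sets from -0.80 to 0.30 at 6 h and from -0.75 to 0.42 at 24 h. A second CCND1 probe set gave -0.35 at 24 h.

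The JNK, p38 and ERK5 cascades are the other families of MAP kinase cascades. There 10 of 13 listed genes were measured, with medians of 0.04 at 6 h and 0.04 at 24 h, beside -0.47 and -0.12 for the 5 cascade genes; the difference between the sets was not tested. MAP2K6, which activates p38, had 57.0 at 6 h against 26.4 in untreated cells, 2.16-fold higher, and gave no difference with a floor of 64. MAPK7, which encodes ERK5, was 1.64-fold lower after 6 h and 1.72-fold lower after 24 h, but inside 1.5-fold with a floor of 64, with centring, with quantile normalization and with log2(signal + 32), and its second probe set gave 0.38 at 6 h. MAPK11, a p38 kinase, differed by -0.34 and -0.49, MAPK10, a JNK kinase, by 0.46 at 6 h and MAPK13 by 0.44 at 24 h. MAPK11 and MAPK10 gave no difference with a floor of 64.

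**Figure D3:**
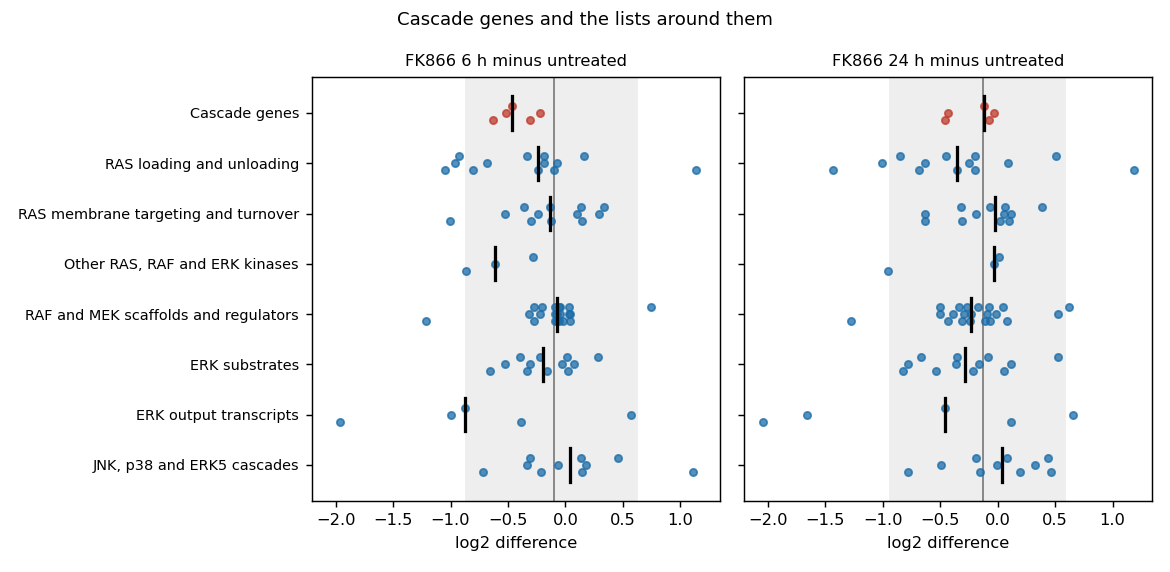
log2 differences of the 5 cascade genes (red) and of the measured genes of 7 lists around them (blue) at 6 h and at 24 h against untreated cells, 1 point per gene and 1 black bar per median. The grey band holds the central 90% of all genes and the grey line their median; the cascade genes have medians of -0.47 at 6 h and -0.12 at 24 h.

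**Figure D4:**
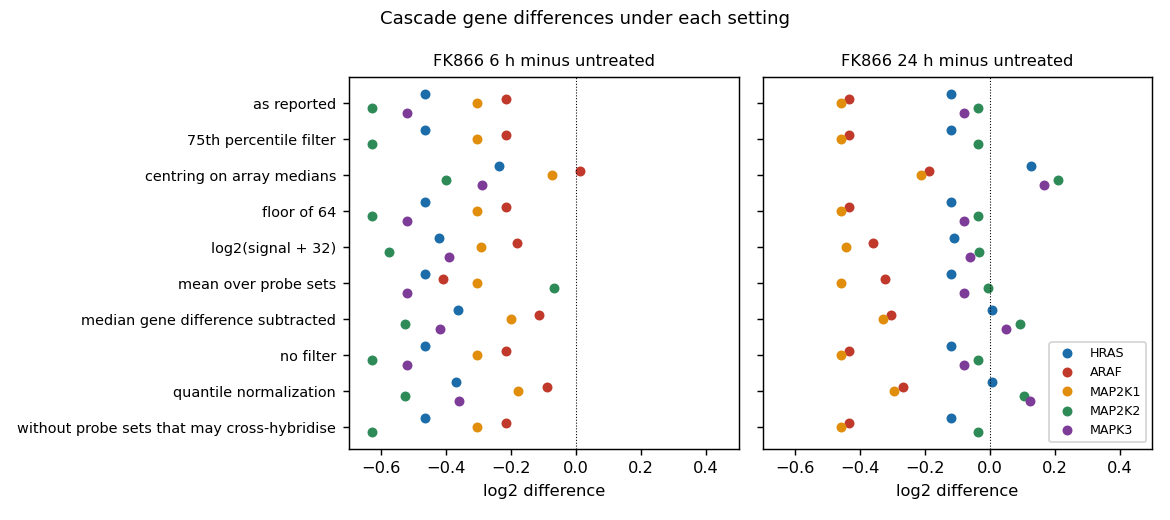
log2 difference of each cascade gene from untreated cells at 6 h and at 24 h as reported and under the 9 other settings, 1 colour per gene. A gene with no value under a setting has no point, and the MAP2K2 value moves to -0.07 at 6 h with the mean over probe sets.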

How the data were processed

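Per the labels' protocols, biotinylated cRNA from total RNA was hybridised to Affymetrix arrays. The table the authors deposited holds 1 intensity per probe set and array on a linear scale, from 0.1 to 20258. The summary, background correction and scaling are not given in the sources used here. Median intensities were 20.4 without FK866, 17.4 after 6 h and 17.2 after 24 h. Of 54675 probe sets, the platform annotation of 2016 gave 1 symbol for 41097, several for 1801 and none for 11777.

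Signals below 16 were set to 16 and log2 was taken. Differences are between 2 arrays. Folds of 1.5 are a fixed size for description, and the SD between kept probe sets of one gene was pooled in bins of mean signal. The number of arrays, 1 per group, also limits the precision. The code was tested on simulated data. The members, the 7 lists and the rules for named genes were chosen with earlier results of these data known. The named genes are all members, the 2 highest and 2 lowest genes of each list at each time above the floor on both arrays, and the 3 genes most like the member with the largest difference; genes at the floor and the second genes of a count were named after their values were seen. Alternatives changed the scaling, floor, filter, summary of probe sets and probe sets that may cross-hybridise. Promoters are RefSeq's, and 5 of 5 measured members matched. Python 3.11.15 with numpy 2.4.6, pandas 2.3.3 and matplotlib 3.10.9 was used.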

Additional observations from a re-analysis of the deposited data

How the results depend on the processing

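The 5 cascade genes were recomputed under 9 other settings, giving 129 differences. Of these, 118 kept the sign of the reported value, and 127 moved by less than the SD between probe sets. Many of the 129 could not move, so these tallies do not measure stability. The floor of 64, no filter, the 75th percentile filter and the removal of probe sets that may cross-hybridise returned the reported value wherever they gave one. The mean over probe sets could change only ARAF and MAP2K2. The exceptions in size were MAP2K2 at 6 h (-0.07) and for 24 h minus 6 h (0.06), both with the mean over probe sets, which averages probe sets of opposite sign. The count of cascade genes at least 1.5-fold different was 1 at 6 h, and 0 with quantile normalization, centring on array medians, the median gene difference subtracted, log2(signal + 32) and the mean over probe sets. Between 24 h and 6 h it was 1, and 0 with log2(signal + 32) and with the mean over probe sets. At 24 h against untreated cells it was 0 under all of them. The median of the cascade genes ran from -0.28 to 0.12 at 24 h and from 0.09 to 0.38 between the treated arrays. MAPK3 had no value with the filter at the 75th percentile or without probe sets that may cross-hybridise, which left 4 genes.

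Over all genes, 678 were 1.5-fold higher and 1346 lower at 6 h, against 1113 and 839 with quantile normalization and 1412 and 692 with centring. At 24 h 595 were higher and 1676 lower, against 1159 and 957 with quantile normalization, 1323 and 823 with centring and 919 higher with the median gene difference subtracted. The 75th percentile filter, which tests fewer genes, gave 206 and 409 at 6 h, 166 and 601 at 24 h, and 113 higher and 248 lower between the treated arrays, where 628 and 940 were reported. A floor of 64 gave 259 and 554, 211 and 764, and 167 and 328, and log2(signal + 32) gave 297 and 671, 267 and 888, and 229 and 391. Of 32 differences of at least 1.5-fold among named genes of the lists, 9 stayed past that size in the same direction under all settings with a value. No paired analysis was possible because each group has 1 array. Signals near the floor carry no order, which limits the dim genes.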
